A study of Mus musculus with 18 samples.

Results

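AML12 is an established line of immortalized mouse hepatocytes. In these cells the transcripts of all 11 detected kinesins sorted here as mitotic were lower after 24 h with 5 mM octanoate than with PBS. So were those of 13 of 15 centromere proteins, beside 26.3% of all probes. Of 13 kinesins and subunits that carry cargo, 11 were higher, by smaller amounts and beside 27.2% of all probes, and 4 of them were called with the BeadChip, the slide that holds the arrays, as a term in the model. Each gene was read by its brightest probe, and 2 of the 11, Kif1b and Kif1c, also had probes called lower. The genes described are those of mouse whose symbol begins with Kif or Cenp and that had a probe detected above background (detection p under 0.05) on at least 4 of 18 Illumina BeadChip arrays, which left 46 of 57 such genes with a named probe, among 10605 genes tested in all. Sorted by the role each protein is known for, they were 11 mitotic kinesins, 13 transport kinesins, 7 other kinesins and 15 centromere proteins. 1 of the transport class is the non-motor subunit Kifap3. The other kinesins include Kifbp, which binds motors and blocks them, and Kif2a, which acts in spindles as well as neurons. Kif20a and Kif2b, sorted as mitotic, were not above background on any array and are not among the 11. Octanoate, a medium-chain fatty acid, was given at 1 mM (n = 4), 2 mM (n = 5) or 5 mM (n = 4), and control cells received PBS (n = 5). All 4 groups were the same line, with no genetic difference among them in the labels, grown in complete DMEM with 10% serum. The series as a whole asks how lipid carbon reaches acetyl groups on histones. Nothing in the labels tells if replicates came from separate cultures, and the p-values cover just the spread between these arrays, which may be technical. Levels are log2 normalized intensities, and adjusted p-values come from limma with Benjamini-Hochberg adjustment over all 20536 tested probes, called at under 0.05.

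Kinesins are motor proteins that walk along microtubules or shorten them. Mitotic kinesins build the spindle, move chromosomes and complete cytokinesis, and dividing cells make most of them only from the S phase of the cycle to mitosis, whereas transport kinesins carry vesicles, mitochondria and endosomes in dividing and resting cells alike. Most of the centromere proteins here form the inner kinetochore, the platform on centromeric chromatin to which spindle microtubules are coupled. Cenpf, Cenpj and Cenpv share the name but have other places, given below. In bulk RNA, fewer cells in division and less RNA per dividing cell cannot be told apart.

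All 11 mitotic kinesins fell at 5 mM, where 26.3% of all tested probes were called lower than in PBS. Of these, 10 fell at least 2-fold, as did 4.57% of all probes, and the median change of the class was -2.66 on the log2 scale (6.33-fold lower), with a median over all tested probes of -0.02. For all 11, every array with 5 mM octanoate lay below every PBS array, as it did for 22% of all tested probes.

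Kif22, a motor on chromosome arms, had the largest fall of the class in the fit to all arrays. Kif22 measured 8.13, 7.99, 7.99 and 8.08 on the arrays with 5 mM octanoate, against 11.06, 11.06, 10.96, 11.19 and 10.997 on the PBS arrays. Its change was -3.01 ± 0.08 on the log2 scale (SE), 8.04-fold lower (adjusted p = 2.09e-16), and it ranked 15th from the lowest of 10605 genes. The 4 arrays with 5 mM octanoate lay close together and far below all PBS arrays. Kif23 is a subunit of centralspindlin, the complex that organizes the midzone before the cell divides. Kif23 measured 9.87, 9.58, 9.87 and 9.88 on the arrays with 5 mM octanoate, against 12.19, 12.08, 12.26, 12.15 and 12.05 on the PBS arrays. Kif23 changed by -2.35 ± 0.08 on the log2 scale (SE), 5.09-fold lower (adjusted p = 4.8e-15), and its groups stood well apart. Kif20b acts in the completion of cytokinesis. Kif20b measured 6.94, 6.64, 7.10 and 7.08 on the arrays with 5 mM octanoate, against 9.95, 9.83, 10.05, 9.80 and 9.87 on the PBS arrays. Its change was -2.96 ± 0.10 on the log2 scale (SE), 7.77-fold lower (adjusted p = 6.58e-15), and the highest 5 mM array lay far below the lowest PBS array. Kif15 helps to keep the spindle bipolar. Kif15 measured 5.50, 5.76, 5.74 and 5.97 on the arrays with 5 mM octanoate, against 8.83, 8.76, 8.61, 8.68 and 8.61 on the PBS arrays. Kif15 changed by -2.96 ± 0.11 on the log2 scale (SE), 7.76-fold lower (adjusted p = 9.55e-15), again without overlap. Kif4, a chromosome-bound motor that also sets the length of the midzone, was low at 5 mM as well. Kif4 measured 6.38, 5.89, 6.16 and 6.30 on the arrays with 5 mM octanoate, against 8.81, 8.85, 8.89, 8.92 and 8.74 on the PBS arrays. Kif4 changed by -2.66 ± 0.10 on the log2 scale (SE), 6.33-fold lower (adjusted p = 2.43e-14), with all 4 arrays with 5 mM octanoate below all 5 PBS arrays. Kif2c takes microtubules apart at centromeres. Kif2c measured 6.71, 6.16, 5.98 and 6.28 on the arrays with 5 mM octanoate, against 9.08, 9.25, 9.33, 9.31 and 9.18 on the PBS arrays. Its change was -2.95 ± 0.11 on the log2 scale (SE), 7.72-fold lower (adjusted p = 3.14e-14), and its 5 mM arrays were spread more widely than its PBS arrays.

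The other 5 mitotic kinesins fell as well. Kif11, the motor that slides spindle microtubules apart, averaged 5.98 ± 0.28 at 5 mM and 8.71 ± 0.15 in PBS (SD, n = 4 and 5), a change of -2.73 ± 0.12 (SE, adjusted p = 1.04e-13). Kif18b, which shortens astral microtubules, averaged 6.29 ± 0.07 at 5 mM and 8.77 ± 0.07 in PBS, 5.54-fold lower. Kif18a, which damps the movement of chromosomes at the metaphase plate, averaged 5.32 ± 0.36 at 5 mM and 7.70 ± 0.16 in PBS, and changed by -2.37 ± 0.14 on the log2 scale (SE), 5.19-fold lower (adjusted p = 2.73e-11). The smallest falls were those of Kifc1, the minus-end motor that focuses spindle poles, and of its near copy Kifc5b. Kifc1 averaged 7.36 ± 0.16 at 5 mM and 9.13 ± 0.11 in PBS, 3.4-fold lower (adjusted p = 6.73e-12). Kifc5b was not above background on any array with 5 mM octanoate (4.58 ± 0.08, against 5.48 ± 0.21 in PBS), so its fall was at least 1.66-fold, computed against the dimmest detected signal of each array (fitted adjusted p = 8.37e-06). Because probe sequences were not used here, signal of Kifc1 and Kifc5b may be shared between their probes.

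A short element was common close to the start of transcription of mitotic kinesins. The cell cycle genes homology region, with the core TTTGAA, is known to hold down many genes of mitosis in resting cells, often beside CCAAT boxes bound by NF-Y. In RefSeq promoter windows of the mouse assembly GRCm38.p6, from 250 bases before to 50 after the annotated start, TTTGAA was found on either strand in 10 of 11 mitotic kinesins (all but Kif18a), in 3 of 15 centromere proteins (Cenpf, Cenpn and Cenpw), in 0 of the 9 transport kinesins that had a window and in 1 of 7 other kinesins (Kif27). The element was in the windows of 14.1% of genes with a tested probe and of 17.9% of all 32851 windows. In the narrower stretch from 70 bases before to 30 after the start it was found in 8 of 11 mitotic kinesins and 3 of 15 centromere proteins, against 3.88% of genes with a tested probe. Those stretches are shown for the 8 mitotic kinesins and for 2 centromere proteins that hold it, and for contrast for 2 transport kinesins that rose and do not hold it, each 100 bases long and 5′ to 3′ on the gene's strand, with TTTGAA and CCAAT or their reverse complements in capitals.
Kif22: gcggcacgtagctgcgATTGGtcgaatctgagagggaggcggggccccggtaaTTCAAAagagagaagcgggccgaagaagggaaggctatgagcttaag
Kif20b: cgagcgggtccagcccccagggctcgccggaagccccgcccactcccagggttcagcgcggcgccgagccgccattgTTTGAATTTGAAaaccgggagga
Kif15: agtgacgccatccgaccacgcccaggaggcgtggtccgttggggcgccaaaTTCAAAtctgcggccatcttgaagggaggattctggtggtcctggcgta
Kif11: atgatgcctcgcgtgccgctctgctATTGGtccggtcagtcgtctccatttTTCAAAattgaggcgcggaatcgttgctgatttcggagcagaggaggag
Kif4: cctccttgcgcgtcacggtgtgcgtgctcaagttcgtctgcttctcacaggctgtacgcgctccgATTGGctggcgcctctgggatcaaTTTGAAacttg
Kif18b: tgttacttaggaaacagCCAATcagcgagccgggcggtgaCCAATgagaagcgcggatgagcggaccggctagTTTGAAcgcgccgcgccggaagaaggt
Kif23: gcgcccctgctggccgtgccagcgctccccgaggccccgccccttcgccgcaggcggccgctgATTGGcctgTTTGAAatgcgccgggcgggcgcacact
Kifc1: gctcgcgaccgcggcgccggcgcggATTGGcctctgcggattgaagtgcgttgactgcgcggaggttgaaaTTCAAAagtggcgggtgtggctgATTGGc
Cenpw: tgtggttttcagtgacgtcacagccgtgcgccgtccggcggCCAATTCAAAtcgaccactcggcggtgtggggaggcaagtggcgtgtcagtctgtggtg
Cenpn: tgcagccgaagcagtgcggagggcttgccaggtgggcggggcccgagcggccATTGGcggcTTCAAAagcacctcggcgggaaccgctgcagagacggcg
Kif5c: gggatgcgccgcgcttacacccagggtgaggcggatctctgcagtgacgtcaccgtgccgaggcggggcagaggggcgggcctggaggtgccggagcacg
Kif3c: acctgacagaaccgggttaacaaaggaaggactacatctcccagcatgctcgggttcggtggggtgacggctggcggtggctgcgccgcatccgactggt
In GRCm38.p6 they lie at chr7:127042391-127042490 (minus strand) for Kif22, chr19:34922288-34922387 (plus strand) for Kif20b, chr9:122951011-122951110 (plus strand) for Kif15, chr19:37376312-37376411 (plus strand) for Kif11, chrX:100625995-100626094 (plus strand) for Kif4, chr11:102925095-102925194 (minus strand) for Kif18b, chr9:61946770-61946869 (minus strand) for Kif23, chr17:33890604-33890703 (minus strand) for Kifc1, chr10:30200511-30200610 (minus strand) for Cenpw, chr8:116921670-116921769 (plus strand) for Cenpn, chr2:49619216-49619315 (plus strand) for Kif5c and chr12:3365062-3365161 (plus strand) for Kif3c.

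In Kif20b the core occurs in tandem just downstream of the start, and in Kif22, Kif15 and Kif11 it lies between bases -19 and -12 on the opposite strand. In Kifc1 it begins at base 2 and in Kifc5b at base 30, and their windows were identical at 239 of 272 aligned bases (87.9%). In Cenpw the element overlaps a CCAAT box. CCAAT was found in 7 of 11 mitotic kinesins, 9 of 15 centromere proteins and 4 of 9 transport kinesins and in 43.2% of genes with a tested probe. TTCCCGC, an E2F core, was found in 6 of 15 centromere proteins and 0 of 11 mitotic kinesins, against 9.84% of genes with a tested probe, and CACGTG, an E-box, in 1 of 42 members with a window (11.8% of genes with a tested probe). Windows were at hand for 42 of 46 members, and for those with several, a match in any was counted. A match describes these letters only, and binding was not measured.

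**Figure D1:**
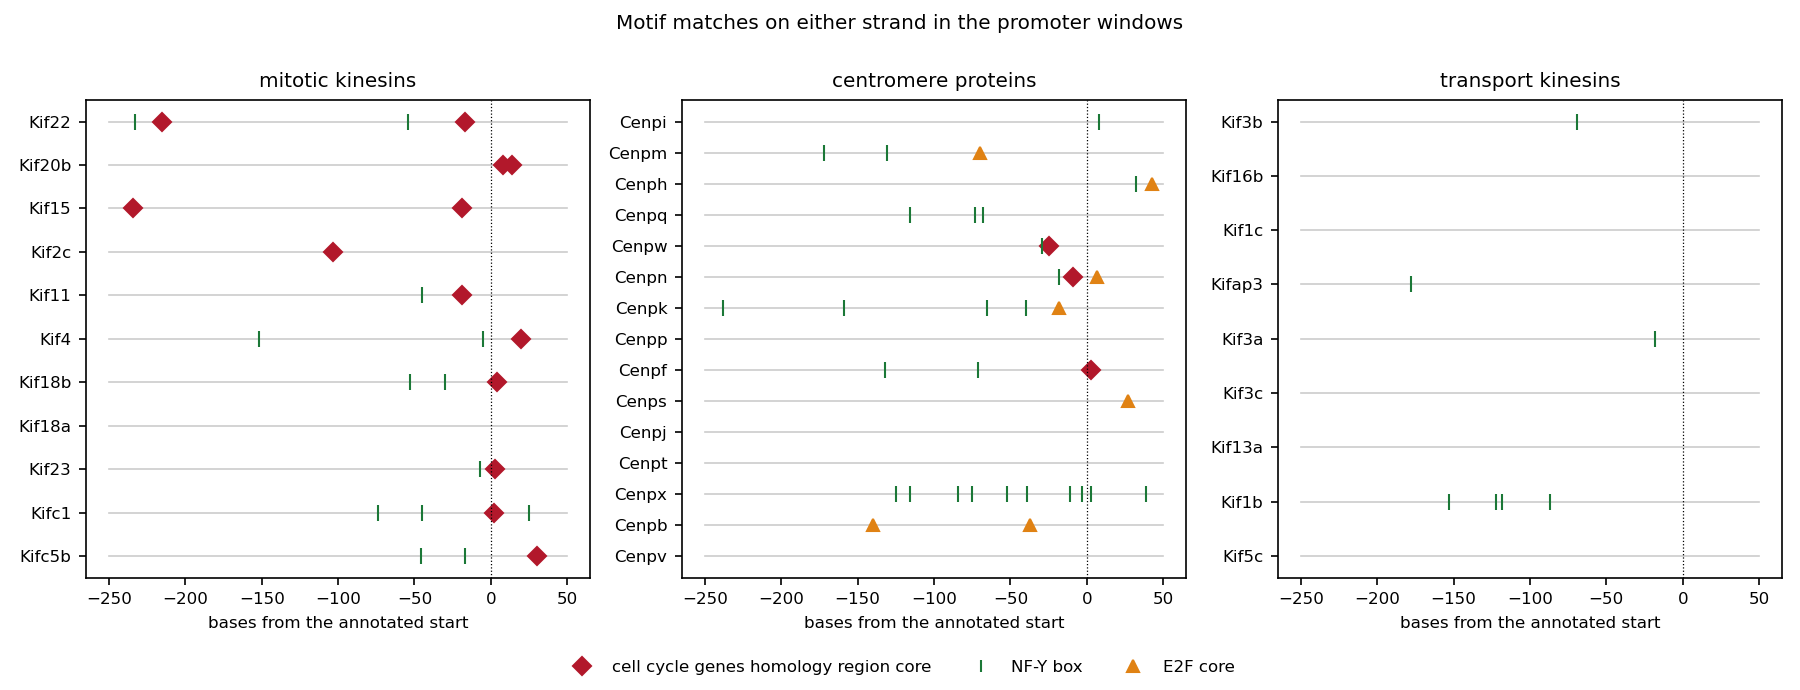
Positions of motif matches on either strand in promoter windows of mitotic kinesins, centromere proteins and transport kinesins, in bases from the annotated start (dotted line); genes are ordered by their change at 5 mM, with the most negative on top, and all windows of a gene share a line. Red diamonds mark the core of the cell cycle genes homology region, present in 10 of 11 mitotic kinesins and in 0 of 9 transport kinesins.

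Most of the change came between 2 and 5 mM. At 1 mM 5 of 11 mitotic kinesins were called lower than in PBS (8.26% of all probes), at 2 mM 7 of 11 (18.9%), and at 5 mM all 11. The median changes of the class were -0.22 at 1 mM, -0.34 at 2 mM and -2.66 at 5 mM. Over the 11 genes, the change at 2 mM came to a median of 15.9% of that at 5 mM on the log2 scale, with a range of 8.17% to 30.5%. Kif22 averaged 11.06 ± 0.09 in PBS, 10.76 ± 0.10 with 1 mM, 10.55 ± 0.12 with 2 mM and 8.05 ± 0.07 with 5 mM (SD). Kif15 was among the most changed at low dose, with -0.46 ± 0.11 at 1 mM (adjusted p = 0.00495) and -0.72 ± 0.10 at 2 mM (adjusted p = 1.22e-05), whereas Kif2c stood at -0.15 ± 0.11 and -0.24 ± 0.11 (adjusted p = 0.406 and 0.0878). Those called at 1 mM were Kif22, Kif20b, Kif15, Kif4 and Kif18b, and Kif23 and Kif11 were added at 2 mM. For 2 mM against 1 mM no mitotic kinesin was called (4.79% of all probes were), and for 5 mM against 2 mM all 11 were called lower (13.2% of all probes), with a median of -2.17. The count of calls at 1 mM was 2 without replicate 4 of that dose and 0 without both of its replicates 1 and 4, which stood apart from the other 2, while the class median was -0.21 in both cases. At 2 mM the count was 6 to 8 with single arrays left out.

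**Figure D2:**
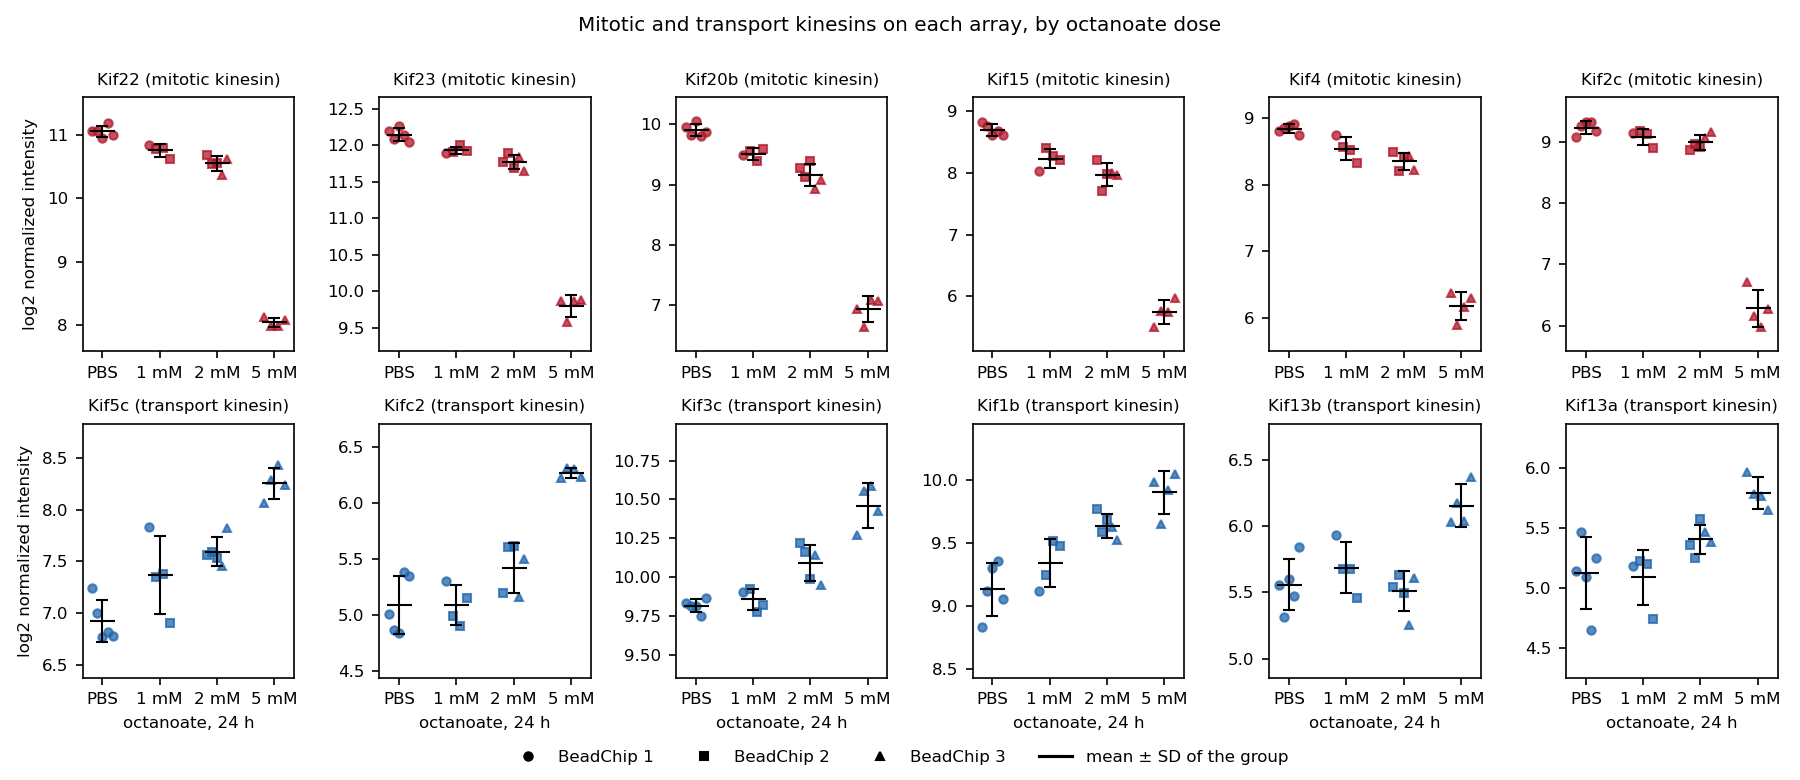
Log2 normalized intensity of 6 mitotic kinesins (top row) and 6 transport kinesins (bottom row) on each of the 18 arrays, for PBS and 1, 2 and 5 mM octanoate; symbols give the BeadChip and bars the group mean ± SD. At 5 mM the mitotic kinesins stand at -3.01 to -2.35 relative to PBS on the log2 scale, and the transport kinesins at 0.59 to 1.33.

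The 3 BeadChips, slides of 6 arrays, were not balanced over the doses. BeadChip 1 held all PBS arrays and replicate 1 of 1 mM, BeadChip 2 the other 1 mM arrays and 2 mM replicates 1 to 3, and BeadChip 3 all 5 mM arrays and 2 mM replicates 4 and 5. The contrast of 5 mM with 2 mM can therefore be made within BeadChip 3 alone. There Kif22 measured 8.13, 7.99, 7.99 and 8.08 at 5 mM, against 10.37 and 10.62 at 2 mM, a difference of -2.44 ± 0.10 (SE, adjusted p = 1.33e-11). Kif2c had the largest within-chip difference of the class, with -2.83 ± 0.15, and Kifc5b the smallest, with -0.71 ± 0.18 (adjusted p = 0.00669). All 11 mitotic kinesins were called lower within BeadChip 3 (9.99% of all probes), with a median of -2.09. With the BeadChip as a fixed term, which ties 5 mM to PBS only through the other doses and a single bridging array, all 11 were again called lower at 5 mM than in PBS (11.4% of all probes), with changes from -3.24 for Kif15 to -1.07 for Kifc5b. Under that term 2 mitotic kinesins were called lower at 1 mM (Kif15 and Kif18b, beside 2.59% of all probes) and 2 at 2 mM (Kif20b and Kif15, beside 4.33%). The 1 mM contrast under that term rests on replicate 1 of 1 mM alone. That array measured 8.04 for Kif15, against 8.22 to 8.41 on the other 1 mM arrays, and 8.19 for Kif18b, against 8.27 to 8.64. The size of the fall differed with the processing: the class median at 5 mM was -1.76 without background correction and -1.33 in the authors' processed values, with 11 of 11 called lower in both.

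**Figure D3:**
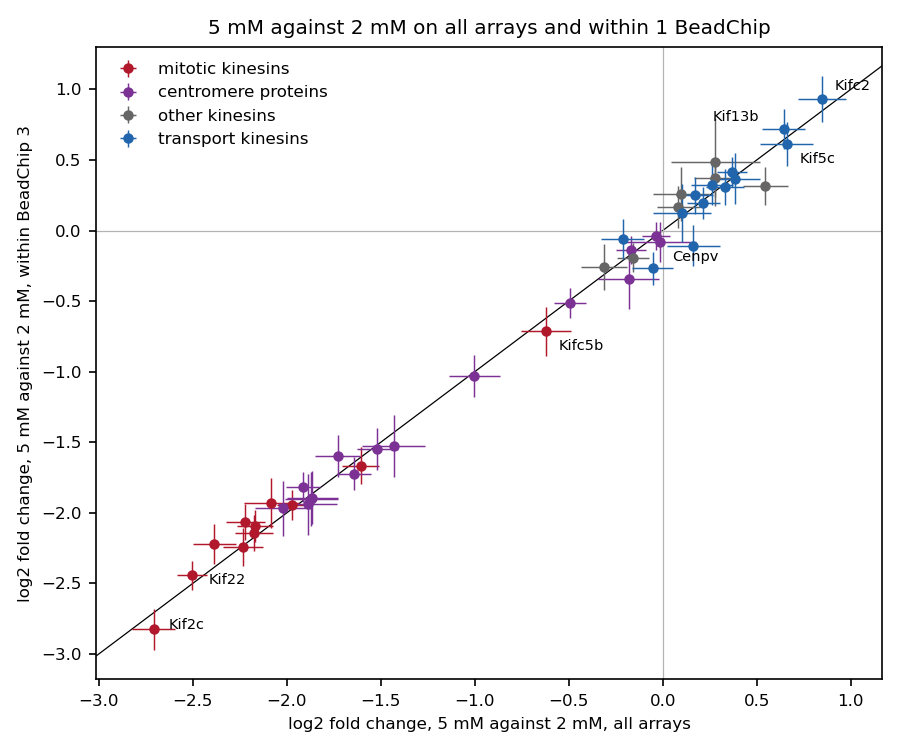
Log2 fold change of 5 mM against 2 mM octanoate for all 46 genes, from all arrays (horizontal axis) and within BeadChip 3 (vertical axis, 4 arrays against 2); bars are standard errors and the line marks equal values. Mitotic kinesins and most centromere proteins lie far below 0 on both axes, and Kif5c, Kifc2 and Kif13b lie above it.

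Of 15 centromere proteins, 13 fell at 5 mM, 10 of them at least 2-fold, and none rose (median -1.74). Over all probes, 26.3% were called lower and 4.57% at least 2-fold lower. The class median at 5 mM was -0.93 without background correction and -0.61 in the authors' processed values. Within the H-I-K-M unit, Cenpi, Cenpm, Cenph and Cenpk all fell. Cenpi measured 5.52, 4.71, 5.30 and 5.55 on the arrays with 5 mM octanoate, against 7.93, 7.98, 7.71, 7.61 and 7.89 on the PBS arrays. Cenpi changed by -2.55 ± 0.14 on the log2 scale (SE), 5.87-fold lower (adjusted p = 3.85e-12), with the 5 mM arrays below all PBS arrays and 1 of them not above background. Cenph measured 5.79, 5.34, 6.16 and 5.42 on the arrays with 5 mM octanoate, against 8.10, 7.98, 8.06, 8.12 and 8.08 on the PBS arrays. Cenph changed by -2.39 ± 0.14 on the log2 scale (SE), 5.24-fold lower (adjusted p = 1.75e-11), and its groups did not overlap. Cenpm averaged 5.26 ± 0.25 at 5 mM and 7.78 ± 0.23 in PBS (SD, n = 4 and 5), and Cenpk 6.21 ± 0.27 at 5 mM and 8.23 ± 0.27 in PBS. Cenpn, which reads the centromeric nucleosome as part of the L-N unit, was low on all 4 arrays with 5 mM octanoate. Cenpn measured 6.81, 6.66, 7.07 and 6.78 on the arrays with 5 mM octanoate, against 9.02, 8.80, 8.95, 8.76 and 8.90 on the PBS arrays. Its change was -2.06 ± 0.09 on the log2 scale (SE), 4.16-fold lower (adjusted p = 2e-13), and the groups stood apart. In the O-P-Q-U-R unit, Cenpq and Cenpp fell. Cenpq measured 5.96, 5.98, 6.19 and 6.42 on the arrays with 5 mM octanoate, against 8.55, 8.37, 8.53, 8.30 and 8.50 on the PBS arrays. Cenpq changed by -2.31 ± 0.12 on the log2 scale (SE), 4.96-fold lower (adjusted p = 2.75e-12). Cenpp measured 5.99, 5.42, 5.87 and 5.96 on the arrays with 5 mM octanoate, against 7.74, 7.44, 7.40, 7.58 and 7.59 on the PBS arrays. Cenpp changed by -1.74 ± 0.11 on the log2 scale (SE), 3.33-fold lower (adjusted p = 4.07e-11), with no overlap between the groups of either gene.

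The members of the T-W-S-X unit carry a histone fold. Cenpw measured 8.52, 8.36, 8.44 and 8.52 on the arrays with 5 mM octanoate, against 10.60, 10.76, 10.65, 10.91 and 10.88 on the PBS arrays. Cenpw, which had the smallest adjusted p of the class, changed by -2.30 ± 0.09 on the log2 scale (SE), 4.92-fold lower (adjusted p = 2.77e-14), and the groups stood well apart. Cenps changed by -1.16 ± 0.13 (adjusted p = 3.93e-07) and Cenpt by -0.61 ± 0.08 (adjusted p = 2.76e-06), whereas Cenpx stood at -0.40 ± 0.19 and was not called (adjusted p = 0.0855). Cenpx averaged 5.37 ± 0.17 at 5 mM and 5.77 ± 0.24 in PBS, and its groups overlapped, but its dimmer tested probe fell by 0.76. Cenpf, of the outer corona of the kinetochore, changed by -1.57 ± 0.17 (adjusted p = 1.11e-07). It was above background on all 5 PBS arrays but on only 1 of 4 arrays with 5 mM octanoate, so the size of that change is set in part by values at background. Cenpb, which binds a short box in satellite DNA, changed by -0.34 ± 0.08, averaging 10.52 ± 0.13 at 5 mM and 10.86 ± 0.06 in PBS (adjusted p = 0.00123). Cenpj, which sets centriole length at centrosomes, changed by -0.76 ± 0.16 (adjusted p = 0.000548). Cenpv, a protein of pericentromeric heterochromatin and the midzone, averaged 10.52 ± 0.08 at 5 mM and 10.53 ± 0.07 in PBS (adjusted p = 0.978), a difference of -0.003 ± 0.08 (SE). At 1 mM 2 of 15 were called lower (Cenpn and Cenpi), a share near the 8.26% of all probes, and at 2 mM 7 (18.9% of all probes), among them Cenpw, Cenph, Cenpm, Cenpq and Cenpj. For 5 mM against 2 mM 11 were called lower (median -1.52, beside 13.2% of all probes), and the same 11 within BeadChip 3 (median -1.55, beside 9.99%). With the BeadChip as a term, 10 were called lower at 5 mM than in PBS (11.4% of all probes), and Cenpt, Cenpj and Cenpb were not (adjusted p of 0.0935, 0.0936 and 0.074), while at 1 mM and at 2 mM only Cenps was called lower (2.59% and 4.33% of all probes) and only Cenpx higher (3.72% and 6.06%). The array that carries that Cenpx value, replicate 1 of 1 mM, measured 6.50, against 5.25 to 5.37 on the other 1 mM arrays.

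**Figure D4:**
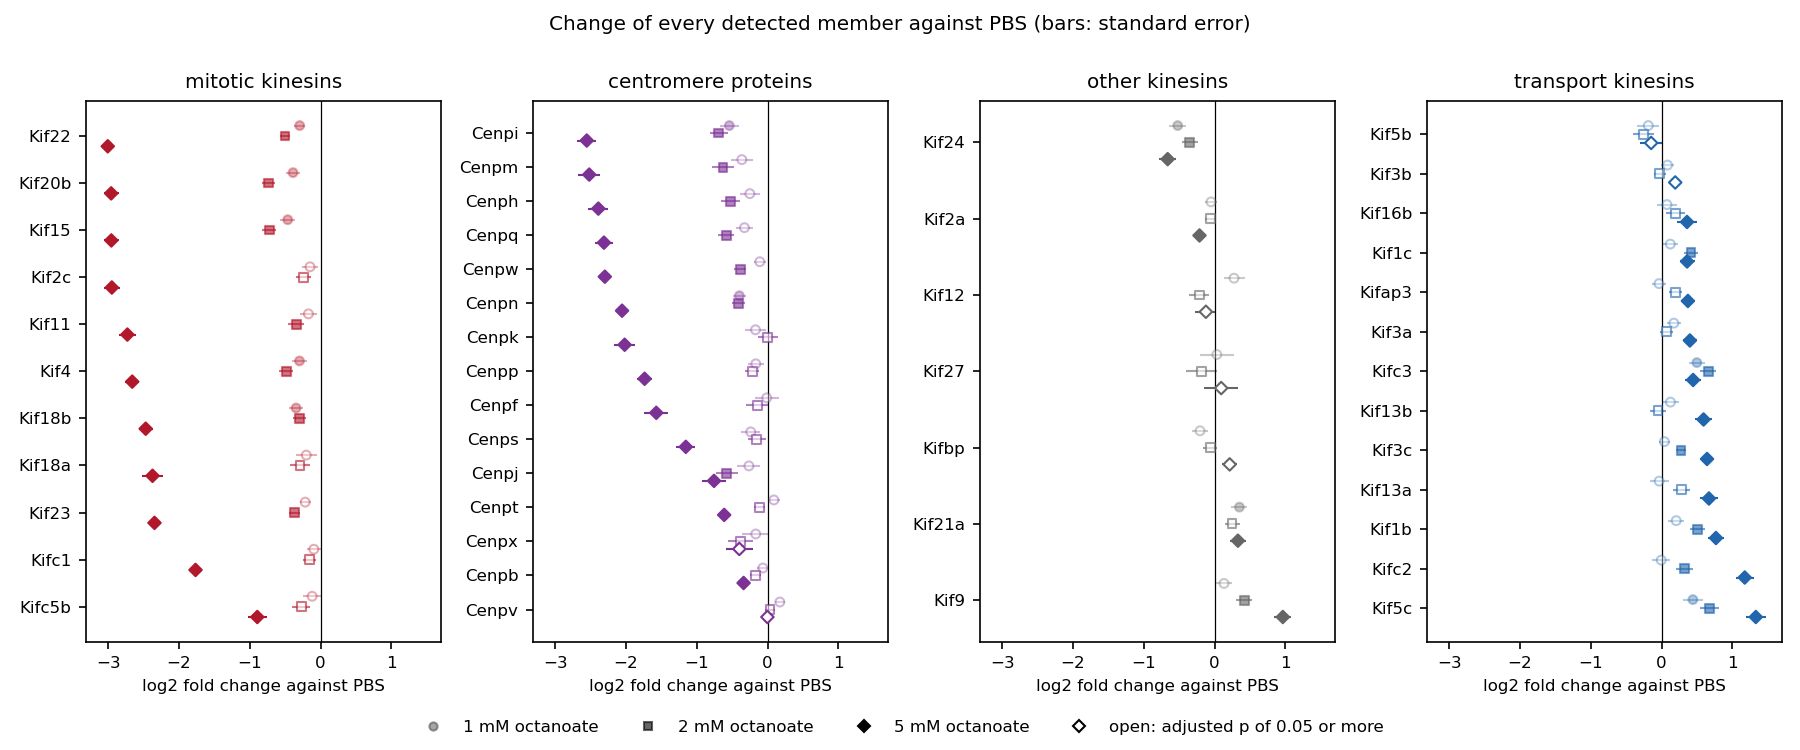
Log2 fold change against PBS at 1, 2 and 5 mM octanoate for all 46 genes by class, with standard errors; filled symbols have an adjusted p under 0.05. At 5 mM all 11 mitotic kinesins and 13 of 15 centromere proteins are filled and left of 0, and 11 of 13 transport kinesins are filled and right of it.

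Most transport kinesins rose, by smaller amounts than the mitotic kinesins fell. At 5 mM 11 of 13 rose and none fell, each read by its brightest probe, where 27.2% of all tested probes and 3388 of 10605 tested genes were called higher. Of the 11, Kif1b and Kif1c also had dimmer probes called lower, as given below. Kif5c and Kifc2, 2 of the 13, rose at least 2-fold, as did 1101 of 20536 probes and 748 of 10605 genes. The class median was 0.45. That median was 0.26 without background correction, 0.21 in the authors' processed values and 0.66 under median scaling, where the median of all probes was 0.09. Kif5c is a heavy chain of conventional kinesin, best known from neurons. Kif5c measured 8.06, 8.29, 8.44 and 8.24 on the arrays with 5 mM octanoate, against 7.24, 7.003, 6.77, 6.82 and 6.78 on the PBS arrays. Kif5c changed by 1.33 ± 0.14 on the log2 scale (SE), 2.52-fold higher (adjusted p = 1.08e-07), with all 5 mM arrays above all PBS arrays. Kifc2 is a minus-end motor of the same superfamily branch as Kifc1. Kifc2 measured 6.22, 6.31, 6.30 and 6.23 on the arrays with 5 mM octanoate, against 5.01, 4.87, 4.84, 5.39 and 5.35 on the PBS arrays. Kifc2 changed by 1.18 ± 0.13 on the log2 scale (SE), 2.26-fold higher (adjusted p = 1.52e-07), and the 4 arrays with 5 mM octanoate were tightly grouped. Kif3c, a partner of Kif3a in vesicle transport, had small spreads. Kif3c measured 10.27, 10.56, 10.59 and 10.43 on the arrays with 5 mM octanoate, against 9.83, 9.82, 9.81, 9.75 and 9.87 on the PBS arrays. Kif3c changed by 0.64 ± 0.08 on the log2 scale (SE), 1.56-fold higher (adjusted p = 8.96e-07), with no overlap. Kif13b and Kif13a carry membrane cargo, Kif13a on endosomes. Kif13b measured 6.03, 6.17, 6.04 and 6.37 on the arrays with 5 mM octanoate, against 5.56, 5.31, 5.60, 5.48 and 5.84 on the PBS arrays. Kif13b changed by 0.59 ± 0.11 on the log2 scale (SE), 1.51-fold higher (adjusted p = 0.00018), without overlap. Kif13a measured 5.97, 5.79, 5.76 and 5.66 on the arrays with 5 mM octanoate, against 5.15, 5.47, 5.09, 4.66 and 5.25 on the PBS arrays. Kif13a changed by 0.67 ± 0.13 on the log2 scale (SE), 1.59-fold higher (adjusted p = 0.000243), although 1 PBS array was not above background. Kif1b carries mitochondria and synaptic vesicle precursors. Kif1b measured 9.98, 9.65, 9.91 and 10.04 on the arrays with 5 mM octanoate, against 8.83, 9.12, 9.30, 9.35 and 9.05 on the PBS arrays. Its brightest probe changed by 0.77 ± 0.11 on the log2 scale (SE), 1.7-fold higher (adjusted p = 7.6e-06), with the groups apart.

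Kif3a, the common motor of the heterotrimeric complex used in cilia, changed by 0.40 ± 0.10 (adjusted p = 0.00188) with overlapping groups, and Kifap3, its non-motor subunit, by 0.37 ± 0.10 (adjusted p = 0.00323). Their partner Kif3b averaged 8.14 ± 0.05 at 5 mM and 7.95 ± 0.12 in PBS and was not called (adjusted p = 0.0652). Kif5b, the broadly expressed conventional heavy chain, averaged 4.85 ± 0.21 at 5 mM and 4.99 ± 0.39 in PBS (difference -0.15 ± 0.16, adjusted p = 0.454), but its probe was above background on 9 of 18 arrays only. Kifc3, a minus-end motor at junctions and apical membranes, reached its highest mean at 2 mM, with 6.14 ± 0.12 in PBS, 6.64 ± 0.10 with 1 mM, 6.79 ± 0.21 with 2 mM and 6.58 ± 0.23 with 5 mM, and the 2 mM and 5 mM arrays overlapped. Kif1c, a motor of vesicles, changed by 0.36 ± 0.11 on its brightest probe (adjusted p = 0.00739). Kif16b, of early endosomes, averaged 5.59 ± 0.13 at 5 mM and 5.23 ± 0.23 in PBS and was just inside the threshold, with 0.36 ± 0.14 (adjusted p = 0.0366). At 1 mM 2 of 13 were called higher (Kif5c and Kifc3; 9.36% of all probes), at 2 mM 6 (with Kifc2, Kif3c, Kif1b and Kif1c added; 18.2%), and for 5 mM against 2 mM 6 again (15.4%), namely Kif5c, Kifc2, Kif3c, Kif13b, Kif13a and Kif3a.

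Fewer transport kinesins were called with the BeadChip in the model, while the class medians were 0.57 with it and 0.45 without it at 5 mM against PBS, and 0.31 with it and 0.26 without it at 5 mM against 2 mM. Within BeadChip 3, 4 transport kinesins were called higher at 5 mM than at 2 mM (11.2% of all probes), and the same 4, Kif5c, Kifc2, Kif3c and Kif13b, at 5 mM against PBS with the BeadChip as a term (12.7% of all probes). Their within-chip differences of 5 mM from 2 mM were 0.93 ± 0.16 for Kifc2, 0.72 ± 0.14 for Kif13b, 0.61 ± 0.16 for Kif5c and 0.41 ± 0.11 for Kif3c (SE). The Kif13b value is that of the brightest of its 3 tested probes. Over all arrays the dimmer ones stood at -0.08 and 0.02 for 5 mM against 2 mM, both uncalled (adjusted p = 0.762 and 0.933). Within BeadChip 3 Kif5c measured 8.06, 8.29, 8.44 and 8.24 at 5 mM, against 7.46 and 7.82 at 2 mM, with the lowest 5 mM array above both. Kif13a and Kif3a stood at 0.37 ± 0.18 and 0.31 ± 0.13 within the chip and were not called (adjusted p of 0.169 and 0.108), beside 0.39 ± 0.13 and 0.33 ± 0.10 over all arrays, where they were. Kif1b, on its brightest probe, was called in neither, with 0.32 ± 0.14 within the chip and 0.26 ± 0.11 over all arrays. Over all arrays, dimmer probes of Kif1b at 0.33 and 0.38 were called higher (adjusted p = 0.00224 and 0.0262). The remaining ones, of either sign, were uncalled. Kif16b stood, under the same term, at -0.47 ± 0.27 and Kif1c at -0.03 ± 0.22 at 5 mM against PBS, both uncalled and with the opposite sign. Under that term Kif5c alone of the class was called at 1 mM and at 2 mM, beside 3.72% and 6.06% of all probes called higher. Both contrasts with PBS pass through replicate 1 of 1 mM, and the 1 mM contrast rests on that array alone. Kif5c measured 7.83 on it, against 7.35, 7.38 and 6.91 on the other 1 mM arrays. Without the term, the class median at 1 mM was 0.08 beside -0.01 for all probes. Under median scaling it was -0.02 beside -0.11 for all probes.

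Several genes were read by more than 1 probe, and the probes of 2 transport kinesins moved in opposite directions. Of 8 tested probes of Kif1b, 4 rose at 5 mM, by 0.55 to 1.00 on the log2 scale, 2 fell, by 0.42 and 0.58, and 2 were not called, at -0.27 and -0.26. Of 3 probes of Kif1c, the brightest rose by 0.36, another fell by 0.93 and the third was not called, at -0.40, and the mean of the 3 was -0.32. Kif1b and Kif1c are known to have several transcript forms, but which form each probe reads was not examined. Of 4 probes of Kif23, the brightest and a second fell by 2.35 and 2.52, the dimmest fell by 1.08, and the remaining one stood at -0.03. All 3 probes of Kif18b fell, with changes of -2.47 to -2.21, as did all 3 of Kif4, with -2.66 to -2.06, and all 3 of Cenpm, with -2.52 to -2.05. All 3 probes of Kif3c rose, by 0.33 to 0.94. Of 3 probes of Kif13b, 2 rose at 5 mM against PBS, by 0.59 and 0.37, and 1 was not called, at 0.10. Of the 17 genes with several tested probes, 2 had probes called in opposite directions, 8 had all probes called 1 way, 7 had called beside uncalled probes, Kif1b and Kif1c among them, and Kif27 and Kif3b had no called probe.

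**Figure D5:**
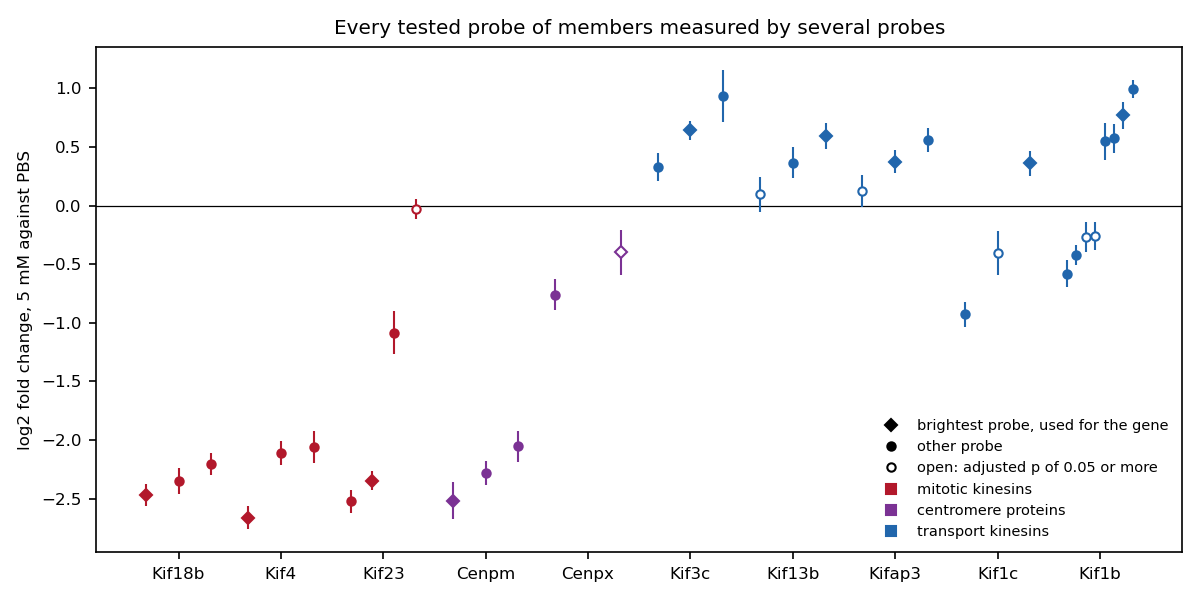
Log2 fold change of 5 mM octanoate against PBS for every tested probe of 10 genes with several probes, with standard errors; diamonds mark the brightest probe, which stands for the gene, and open symbols an adjusted p of 0.05 or more. The probes of Kif18b, Kif4 and Cenpm lie together below -2, whereas those of Kif1b and Kif1c lie on both sides of 0 and one of Kif23 lies at -0.03.

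Of the 7 remaining kinesins 2 were called higher and 2 lower at 5 mM, shares near the 27.2% and 26.3% of all probes. Kif9, a kinesin of cilia, was undetected on all 5 PBS arrays and detected on all 4 arrays with 5 mM octanoate, at 5.60, 5.23, 5.48 and 5.43, against 4.46, 4.40, 4.43, 4.56 and 4.50 in PBS, at least 1.49-fold higher. Kif24, a depolymerase at centrioles that holds back cilium formation, measured 4.38, 4.71, 4.51 and 4.31 on the 5 mM arrays, none of them above background, against 5.06, 5.45, 4.86, 5.26 and 5.05 in PBS, where all 5 were. It was at least 1.31-fold lower at 5 mM and at least 1.23-fold lower at 1 mM. Kif9 met the limit of 4 detected arrays only through its 5 mM arrays (3 others, all at 2 mM, were detected) and Kif24 only through its PBS arrays (2 others, at 2 mM), so their calls follow in part from that limit and are given as a description. Kif21a, which restrains microtubule growth, averaged 7.18 ± 0.13 at 5 mM and 6.85 ± 0.17 in PBS (adjusted p = 0.0186). Kif2a, a depolymerase of spindles and neurons related to Kif2c, averaged 7.74 ± 0.12 at 5 mM and 7.95 ± 0.06 in PBS, a change of -0.21 ± 0.08 with overlapping groups (adjusted p = 0.0405), beside the -2.95 ± 0.11 of Kif2c. Kifbp, which binds motors and blocks them, averaged 8.01 ± 0.19 at 5 mM and 7.79 ± 0.18 in PBS (SD, n = 4 and 5). Kif12, of kidney and liver, averaged 5.68 ± 0.44 at 5 mM and 5.80 ± 0.17 in PBS, and Kif27, a cilium-related relative of Kif4, 4.98 ± 0.33 at 5 mM and 4.89 ± 0.56 in PBS. None of these 3 was called (adjusted p of 0.104, 0.518 and 0.768). None of the 7 was called at 5 mM with the BeadChip as a term.

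Genes of the same machinery were read from lists of kinetochore genes, spindle partners, adaptors and dynein subunits. Of 13 tested genes of the outer kinetochore and its microtubule couplers, out of 14 listed, 10 fell at 5 mM and 1 rose, with a median of -1.13, beside 26.3% of all probes lower. The 13 include Itgb3bp, which is the R protein of the O-P-Q-U-R unit and so belongs to the inner kinetochore. Ndc80, the microtubule hook of the kinetochore, averaged 5.93 ± 0.23 at 5 mM and 8.73 ± 0.08 in PBS, 6.97-fold lower (adjusted p = 1.7e-14). Ska3, of the complex that tracks microtubule ends, changed by -2.63 ± 0.10, and Pmf1 and Dsn1, of the Mis12 complex, by -2.13 ± 0.12 and -1.50 ± 0.09. The gene that rose was Zwint, a kinetochore scaffold, with 0.41 ± 0.08 (adjusted p = 0.000147), a call that was lost with the BeadChip as a term, and Spc24 and Mis12 were not called. With that term 7 of the 13 were called lower and none higher (11.4% and 12.7% of all probes). All 3 tested genes that load centromeric nucleosomes, of 4 listed, fell, beside 26.3% of all probes, with changes of -2.39 ± 0.09 for Mis18a, -2.30 ± 0.09 for Hjurp and -2.16 ± 0.12 for Oip5. Of 9 tested partners of mitotic kinesins, out of 10 listed, 7 fell, beside 26.3% of all probes, and none rose (median -2.44), led by Anln, a scaffold of the cleavage furrow, with -2.97 ± 0.09, Tpx2, which recruits spindle motors, with -2.77 ± 0.10, Prc1, the midzone crosslinker that works with Kif4, with -2.44 ± 0.10, and Nusap1, a spindle microtubule bundler, with -2.45 ± 0.11. With the BeadChip as a term 6 of these 9 partners were called lower, beside 11.4% of all probes. All 3 genes that load centromeric nucleosomes were called lower under it too.

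Kinesin light chains and cargo adaptors gave 5 genes higher and 1 lower of 10 tested and 12 listed (median 0.31, beside 27.2% of all probes higher). Mapk8ip1, a scaffold that links kinesin to cargo, averaged 8.44 ± 0.07 at 5 mM and 6.89 ± 0.17 in PBS, 2.93-fold higher (adjusted p = 1.61e-10). The light chain Klc4 changed by 0.96 ± 0.13, the lysosome adaptor subunit Borcs5 by 0.47 ± 0.09 and the mitochondrial adaptor Trak1 by 0.52 ± 0.10, while the light chain Klc1 fell, with -0.36 ± 0.10 (adjusted p = 0.00536). With the BeadChip as a term 3 of 10 were called higher and none lower (12.7% and 11.4% of all probes). Dynein and dynactin, the machinery of transport to the minus end, gave 8 higher and 3 lower of 20 tested and 22 listed (median 0.16, beside 27.2% of all probes higher and 26.3% lower). The light chains Dynlt3 and Dynlrb1 changed by 0.91 ± 0.09 and 0.76 ± 0.09, the dynactin subunit Dctn3 by 0.56 ± 0.09, and Nde1, a dynein cofactor known to be used in mitosis, by -0.83 ± 0.08. Of the 20, 2 were called higher and 1 lower with the BeadChip as a term (12.7% and 11.4% of all probes).

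Not all members of the families could be followed. Probes of Cenpc1, Cenpe, Cenpo, Kif17, Kif1a, Kif20a, Kif21b, Kif26a, Kif2b, Kif5a and Kif7 were above background on at most 1 array each, so that the kinetochore motor Cenpe and the cytokinesis motor Kif20a were not well above background in any group. Genes such as Kif14, Cenpl and Cenpu were not analysed here. Of the 46 members, 36 were detected on all 18 arrays, and those nearest the limit were Kif9 (7 arrays), Kif24 (7), Kif27 (8) and Kif5b (9). Across the series, 17446 to 19842 probes were detected per array, arrays of 1 group correlated at 0.988 to 0.995, and the first principal component, with 57.7% of the variance, followed the dose. Replicates 1 and 4 of 1 mM stood apart on the third component (3.62%). Of 11 hepatocyte markers 8 were detected in each group, with Alb, Apoa2 and Fgb not above background, and their summed linear level was 42423 to 47707 at 5 mM, against 29020 to 31760 in PBS. Ttr, the gene of the plasma protein transthyretin, changed by 4.22 ± 0.10, where the largest rise of any tested gene was 4.22, and Krt18, a keratin of hepatocytes, by -0.32 ± 0.07. A summed level can be carried by a single gene, so it does not tell how most hepatocyte markers moved. Of 4 biliary markers 3 were detected in each group (5391 to 6157 at 5 mM, against 4997 to 5278 in PBS). Sums of the other cell types' lists, each with a floor set by the added offset, were low: 139 to 149 at 5 mM, against 131 to 147 in PBS for 6 fibroblast markers, 66 to 72 at 5 mM, against 65 to 74 in PBS for 3 macrophage markers, and 92 to 98 at 5 mM, against 102 to 115 in PBS for 4 endothelial markers. Of these, 2, 1 and 2 were detected on any array with 5 mM octanoate. Pdgfra and Dcn of the fibroblast list, Csf1r of the macrophage list and Kdr and Tek of the endothelial list reached the limit of 4 arrays. The other genes of those lists did not reach it or had no named probe. Counting any probe of a gene, 0 fibroblast markers were detected on all PBS arrays and 2 on all arrays with 5 mM octanoate. The part of these changes in the results for kinesins and centromere proteins was not tested.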

How the data were processed

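RNA of 18 AML12 samples was measured on Illumina mouse BeadChips. Per the file headers, the deposited table holds a summarized intensity, not normalized, and a detection p-value for each of 45281 probes on every array. Processed log2 values that the authors deposited (array medians from 7.35 to 7.36) served only as an alternative. The submitters' processing notes name lumi, whose version the sources used here do not give. Array by array, the authors' values correlated at 0.957 or more with the normalized log2 levels used here. Class medians of the changes at 5 mM were smaller in them. Their transform, scale and centring stay unknown. Intensities were background-corrected with the negative controls that neqc infers from the detection p-values (limma 3.58.1, R 4.3.3; offset 16, which understates changes of dim probes), quantile normalized and put on the log2 scale. Tests ran on 20536 probes whose detection p lay below 0.05 on 4 or more arrays. Quantile normalization removes a shift common to most transcripts. Groups came from the labels and were fitted with lmFit and eBayes over all 18 arrays (14 residual degrees of freedom), two-sided; the number of arrays and the signal over background limit the precision. Adjusted p-values are Benjamini-Hochberg over all tested probes. Each gene is represented by its brightest tested probe, while shares of all probes count every tested probe. Counted by gene in the same way, 1175 of 10605 were called higher and 900 lower at 1 mM, and 2349 and 1981 at 2 mM. At 5 mM they were 3388 and 2833, and for 5 mM against 2 mM 2004 and 1547. The share of genes called higher is thus above that of probes. The platform annotation gave 1 symbol for 34885 probes, several for 18 and none for 10378, and the symbols of 34807 probes were matched to RefSeq (GRCm38.p6). Members, lists, classes and motifs were chosen with earlier results of these data known, so no list supports its own direction. Values are given in full, per class, for up to 6 members with the smallest adjusted p at 5 mM, up to 3 with the largest and any called against the direction of its class, and per list for up to 4 genes. A bound on a fold sets the bright group's mean against, per array, the higher of the dim probe's value and the lowest signal among detected probes. The fit was tested on simulated data. Alternatives were another scaling, no background correction, the authors' values, other filters, the mean of a gene's probes, the BeadChip as a term or block, a replicate block, other fits and single arrays left out. 1 gene is not reported here.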

Additional observations from a re-analysis of the deposited data

Results flagged for a closer look

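The highest or lowest array of a group lay far from the rest (Dixon's test at the 95% level) in 12 of 184 combinations of member and group (6.52%), where chance gives about 1 in 20. Levels are log2 normalized intensities. Cenpm was highest on PBS replicate 2 (8.20, against 7.66 to 7.70 on the other arrays of that group). Cenpt was lowest on 2 mM replicate 3 (9.40, against 9.49 to 9.52 on the other arrays of that group). Cenpw was lowest on 2 mM replicate 4 (10.15, against 10.39 to 10.47 on the other arrays of that group). Cenpx was highest on 1 mM replicate 1 (6.50, against 5.25 to 5.37 on the other arrays of that group). Cenpx was lowest on 5 mM replicate 3 (5.11, against 5.42 to 5.47 on the other arrays of that group). Kif13a was lowest on 1 mM replicate 4 (4.75, against 5.18 to 5.23 on the other arrays of that group). Kif21a was highest on 2 mM replicate 1 (7.38, against 6.95 to 7.08 on the other arrays of that group). Kif23 was lowest on 5 mM replicate 2 (9.58, against 9.87 to 9.88 on the other arrays of that group). Kif27 was highest on 2 mM replicate 2 (5.27, against 4.41 to 4.63 on the other arrays of that group). Kifap3 was lowest on 2 mM replicate 5 (8.70, against 8.996 to 9.05 on the other arrays of that group). Kifc3 was lowest on 2 mM replicate 4 (6.44, against 6.84 to 6.99 on the other arrays of that group). Kifc5b was lowest on PBS replicate 1 (5.10, against 5.53 to 5.63 on the other arrays of that group).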

How the results depend on the processing

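Over 30 alternatives, all 11 mitotic kinesins were called lower at 5 mM than in PBS and than at 2 mM, and centromere proteins called lower numbered 10 to 14 at 5 mM against PBS and 10 or 11 against 2 mM. With the BeadChip as a fixed term, calls lower at 1 mM and at 2 mM were 2 and 2 for mitotic kinesins and 1 and 1 for centromere proteins, with 1 and 1 of the centromere proteins called higher, and transport kinesins called higher numbered 1, 1 and 4 at 1, 2 and 5 mM. As a random block, the BeadChip (correlation 0.035) moved no such count by over 1.5 times. Under that fixed term Cenpx stood at 0.73 at 1 mM and 0.77 at 2 mM (-0.17 and -0.39 without it), Kif1c at -0.032 and Kif16b at -0.47 at 5 mM, and their slopes over dose at -0.055 and -0.058 per mM. With the mean of its probes Kif1c stood at -0.071 at 2 mM and -0.32 at 5 mM, with a slope of -0.068 per mM, and 1 transport kinesin was called lower at 5 mM. The cause of these changes was not tested. Of centromere proteins at 1 mM, 4 were called lower under median scaling, without background correction and with the mean of a gene's probes, and 1 was called higher without background correction and in the authors' values. For 2 mM against 1 mM, mitotic kinesins called lower numbered 2 without background correction and in the authors' values, and 1 under the stricter filter, with the mean of a gene's probes and with a trended robust prior; 1 centromere protein was called lower without background correction, in the authors' values and with the trended prior; and transport kinesins called higher numbered 1, 1 and 2 in those 3 fits. Mitotic kinesins called lower at 1 mM numbered 3 when only the groups compared were fitted, and 0 without 1 mM replicates 1 and 4, an alternative chosen after seeing the data. Transport kinesins called higher at 1 mM numbered 0 under median scaling and 1 in the authors' values, with no filter and when only the groups compared were fitted, and 3 at 2 mM under median scaling. With single arrays left out, mitotic kinesins called lower ranged from 2 to 6 at 1 mM and from 0 to 1 for 2 mM against 1 mM, transport kinesins called higher from 1 to 2 at 1 mM, and transport kinesins called lower from 0 to 1 for 5 mM against 2 mM. Median scaling moved the median of all probes to -0.11 at 1 mM and to 0.16 for 5 mM against 2 mM. Under it calls lower and higher over all probes were 2032 and 498 at 1 mM, 3053 and 2229 at 2 mM, 3270 and 6191 at 5 mM, 15 and 417 for 2 mM against 1 mM, and 1043 and 4773 for 5 mM against 2 mM, against 1697 and 1922, 3872 and 3743, 5400 and 5586, 345 and 639, and 2706 and 3167 with quantile normalization. Same-numbered replicates did not deviate together (r -0.041 to 0.054 over 25 pairs), so no pairing by number was seen. The labels do not say if same-numbered samples were handled together, and these correlations cannot tell. With the replicate block, 11 mitotic kinesins and 13 centromere proteins were called lower and 10 transport kinesins higher at 5 mM. None of the counts of those 3 classes moved by over 1.5 times.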
